A study of Mus musculus with 9 samples.

Results

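The 10 long noncoding RNA genes Malat1, Neat1, Gas5, Snhg1, Snhg8, Snhg12, Mir17hg, Mir142hg, Mir155hg and Dleu2 were followed in RNA of group 2 innate lymphoid cells (ILC2s) sorted from mouse pancreas. They were chosen by name as abundant nuclear RNAs and as hosts of small RNAs, with earlier results of these data known. Of the 10, 9 had a row among the 20732 genes of the count table. Snhg1 had none, so its own level was not analysed here. All mice were of the C57BL6/J genotype and carried no engineered allele named in the labels. The control group, titled naïve, had received PBS (4 libraries) and the other group IL-33, an alarm cytokine to which ILC2s respond (5 libraries). Injections of PBS or 200 ng IL-33 were given on days 0 and 1, and the pancreas was taken on day 5. ILC2s were sorted as live CD45+ KLRG1+ cells lacking CD3, B220 and lineage markers. Sex and age are not given in the labels. The series' design text counts 5 PBS and 4 IL-33 mice, and the sample labels, which were followed, give 4 and 5. No label ties a library to its own mouse, and p-values therefore cover the spread among libraries, which may be technical.

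Long noncoding RNAs are transcribed and processed much like messenger RNAs but are not translated into a known protein. Malat1 and Neat1 stay in the nucleus: Malat1 collects in nuclear speckles, where splicing factors are stored, and the long form of Neat1 is the scaffold of paraspeckles, bodies that hold RNA-binding proteins. Gas5 and the Snhg genes carry small nucleolar RNAs (snoRNAs) in their introns, and their spliced exons are usually destroyed by nonsense-mediated decay when ribosomes reach an early stop codon. MicroRNA host genes are cut by the Drosha-Dgcr8 complex to release hairpins, which Dicer turns into mature microRNAs that lower the output of messenger RNAs carrying a match to their seed. In lymphocytes the miR-17-92 cluster and miR-155 are known for promoting proliferation and effector function, miR-142 for a role throughout the blood lineages, and miR-15 and miR-16 for restraining the cell cycle.

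The counts below are of the host transcripts, and mature microRNAs and snoRNAs were not measured. The microRNAs within the 4 host loci are shown to make clear which products each host row stands beside, with the seed (bases 2 to 8 from the 5′ end) in capitals. Sequences are from RefSeq on GRCm38.p6. Mir17hg (chromosome 14, 115042879-115046727, + strand, GRCm38) carries the miR-17-92 cluster, whose main arms have 4 seeds among them. Shared seeds stand on adjacent lines.
miR-17-5p: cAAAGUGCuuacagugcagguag
miR-20a-5p: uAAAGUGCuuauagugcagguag
miR-18a-5p: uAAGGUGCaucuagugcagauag
miR-19a-3p: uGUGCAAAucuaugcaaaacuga
miR-19b-3p: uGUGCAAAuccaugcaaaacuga
miR-92a-3p: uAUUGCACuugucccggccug
The arms of the other 3 hosts follow. Mir142hg lies on chromosome 11 (87755577-87757270, + strand) and Mir155hg on chromosome 16 (84703167-84715245, + strand). Dleu2 lies on chromosome 14 (61602839-61682373, - strand), and its pair of microRNAs has a common seed.
miR-142a-5p: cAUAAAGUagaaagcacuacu
miR-142a-3p: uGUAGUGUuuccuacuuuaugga
miR-155-5p: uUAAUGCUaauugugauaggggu
miR-15a-5p: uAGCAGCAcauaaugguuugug
miR-16-5p: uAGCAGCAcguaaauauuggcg

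Transcripts of snoRNA hosts typically begin with a terminal oligopyrimidine tract (5′ TOP), a run of C and T at the start site that ties their translation to growth signals. The 50 bases around the start, 20 upstream and 30 downstream, are printed for the 4 snoRNA hosts on GRCm38.p6, with the longest run of C and T that touches the 5 bases on either side of the start in capitals.
Gas5, chr1:161035146-161035195, + strand: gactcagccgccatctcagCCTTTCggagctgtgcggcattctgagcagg
Snhg1, chr19:8723467-8723516, + strand: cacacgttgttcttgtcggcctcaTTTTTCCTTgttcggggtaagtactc
Snhg8, chr3:123508307-123508356, - strand: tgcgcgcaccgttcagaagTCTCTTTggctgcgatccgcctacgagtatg
Snhg12, chr4:132308658-132308707, + strand: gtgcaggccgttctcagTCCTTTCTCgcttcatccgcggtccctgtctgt
The runs were 6, 9, 7 and 9 bases long. Of 32851 RefSeq promoters, 20.2% had a run of at least 6 bases placed in this way, 13.5% one of at least 7 and 6.65% one of at least 9. Gas5 has a further RefSeq start upstream with a run of 3 bases. The runs of Gas5, Snhg8 and Snhg12 printed above span the start, whereas that of Snhg1 begins at base 5 of the transcript. Malat1 had a run of 4 bases beginning 8 bases before its start, and Dleu2 one of 13 beginning 15 bases before. Both of these end upstream of the start, outside the transcript.

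Counts were summed per gene by the authors, and total counts per library lay between 14216976 and 21020023. Values below are CPM, counts scaled to a common library size, after TMM scaling, a step that removes differences in composition between libraries. The sorted cells carried the markers of the label: all 12 ILC2 markers, among them Gata3, Il1rl1 and Klrg1, were in the table. They summed to 0.498% to 1.38% of counts in PBS and 1.14% to 1.603% in IL-33 libraries. The sum includes Il5 (3665 to 7186 reads in PBS, 17445 to 45132 in IL-33) and Il13 (1075 to 2141, 17670 to 47387). Klrg1 was also higher (6213 to 15467, 19167 to 35273). Icos (5981 to 13134, 2240 to 5585) and Il7r (4890 to 14620, 2683 to 6986) went the other way. The sum therefore does not compare ILC2 content between the groups. Of the T cell markers, 7 of 9 were in the table and summed to 0.0135% to 0.0333% in PBS and 0.0278% to 0.0358% in IL-33 libraries, nearly all of it Cd3g, and Cd5 was at 0 in every PBS library. The 5 B cell markers, of a type that the B220 gate leaves out, summed to 0.0522%, 0.0611%, 0.0612% and 0.0223% in PBS 1 to 4 and to 0.0188% to 0.0417% in IL-33 libraries. Most of this was Ighm, at 4332 to 10906 reads in PBS and 1764 to 6574 in IL-33 libraries. Cd79b went the other way, with 25 to 480 reads in PBS and 1251 to 2129 in IL-33 libraries. Ms4a1 was at 0 in every PBS library. The 20 acinar markers, secreted enzymes of the surrounding tissue, took between 0.124% (PBS 2) and 39.5% (PBS 4) of counts in PBS and between 0.348% (IL-33 5) and 11.4% (IL-33 1) in IL-33 libraries, and PBS 4 had the lowest TMM factor, 0.532, against 0.990 to 1.17 in the others. The 7 endothelial markers summed to 0.00549% to 0.0132% in PBS and 0.00205% to 0.00649% in IL-33 libraries, the 6 erythroid markers to 0.0142% to 0.0343% and 0.0424% to 0.365%, and Alas2 was at 0 in every PBS library. In bulk RNA, fewer cells of a type and less RNA per cell cannot be told apart.

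The 2 nuclear architecture RNAs fell after IL-33 and the hosts of small RNAs gave no call. With edgeR's quasi-likelihood test and Benjamini-Hochberg adjustment over 14405 genes, 2 of the 9 measured genes were lower in IL-33 libraries at an adjusted p below 0.05 and 0 were higher. Among all genes tested 25.2% were called, 11.6% lower and 13.7% higher, and a count of 2 among 9 is read against these shares. At the same threshold 5 of the 9 were lower by the DESeq2 Wald test, where 15.8% of genes were lower, and 4 by limma voom with sample weights, where 14.3% were. In 4 of the 9 (Malat1, Neat1, Mir17hg and Mir142hg) every IL-33 library lay below every PBS library, as in 10.8% of all genes tested. Fitted log2 changes ran from -3.51 to -0.01, and the median over all genes tested was -0.05.

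**Figure D1:**
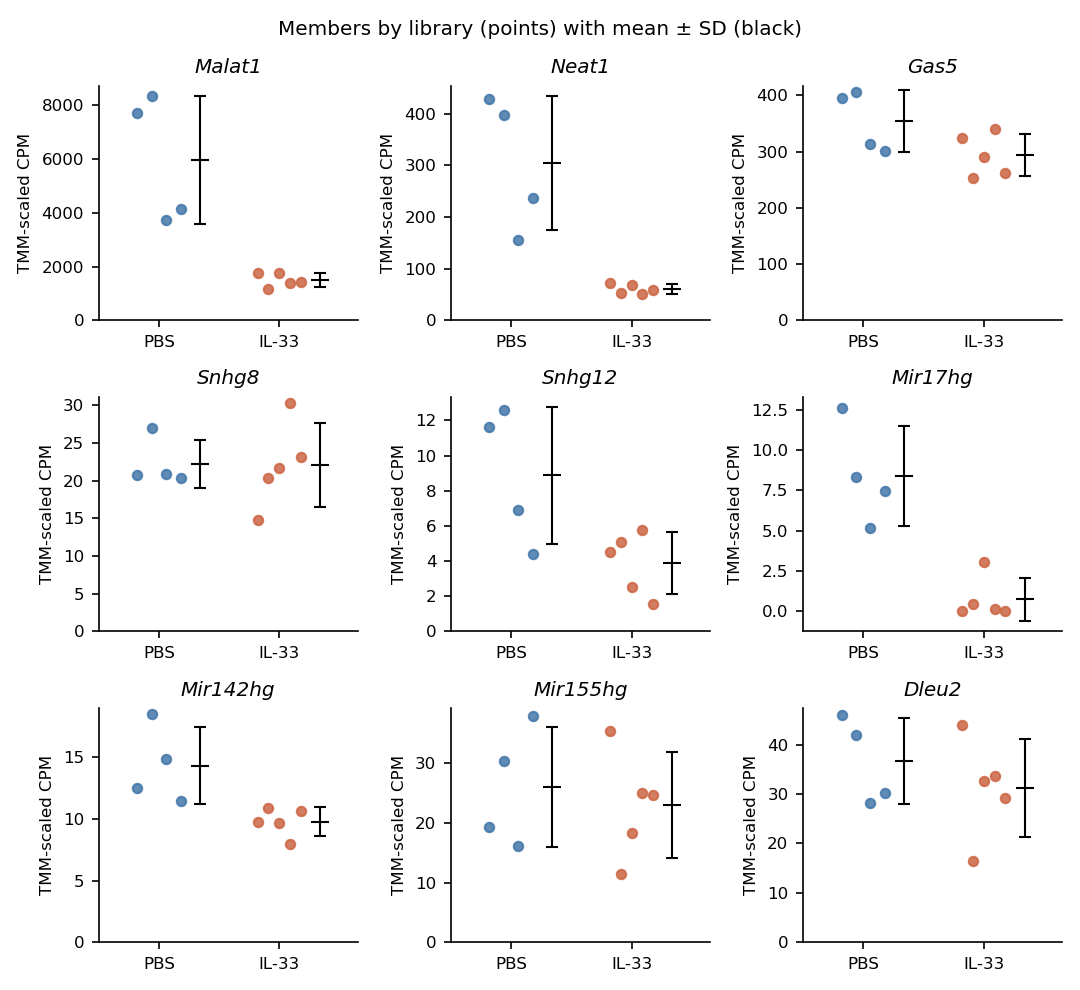
Each panel shows 1 gene, with TMM-scaled CPM on the y axis, 1 point per library (4 PBS, 5 IL-33) and the group mean ± SD in black. Malat1 and Neat1 are lower in all 5 IL-33 libraries than in any PBS library, while the Gas5, Snhg8, Mir155hg and Dleu2 points of both groups overlap.

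Malat1 (ENSMUSG00000092341, chromosome 19, 5795690-5802672, - strand) is annotated as a single exon block of 6983 bases. It stood at 7690, 8317, 3722 and 4129 CPM in PBS 1 to 4 and at 1773, 1172, 1754, 1377 and 1443 CPM in IL-33 1 to 5. The groups did not overlap, and PBS 1 and 2 were the high libraries of their group. The mean was 5965 ± 2374 CPM (SD, n = 4) in PBS and 1504 ± 257 (SD, n = 5) in IL-33 libraries, a ratio of 3.97. The fitted log2 change was -1.99 ± 0.26 (SE), with an adjusted p of 0.00071 in edgeR's quasi-likelihood test. In rank of mean CPM among all genes, Malat1 went from 20 in PBS to 73 in IL-33 libraries, and it held 0.219% to 0.971% of all counts in PBS against 0.127% to 0.179% in IL-33 libraries.

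Neat1 (ENSMUSG00000092274, chromosome 19, 5824708-5845478, - strand) lies next to Malat1 on the same strand and is annotated as a single exon block of 20771 bases. Its PBS libraries had 428, 398, 156 and 236 CPM. Its IL-33 libraries had 72.9, 53.0, 69.1, 50.5 and 58.3 CPM. All IL-33 values lay below the lowest PBS value, and again PBS 1 and 2 were highest. The mean fell from 304 ± 130 CPM (SD, n = 4) to 60.7 ± 9.84 (SD, n = 5), which took its rank by mean CPM from 462 to 2853. The log2 change was -2.33 ± 0.28 (SE), adjusted p = 0.000494 by edgeR's quasi-likelihood test.

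The PBS libraries richest in acinar reads, PBS 3 and 4, had less Malat1 and Neat1 than PBS 1 and 2. With the log2 acinar share as a covariate the changes were -1.87 for Malat1 and -2.24 for Neat1, with adjusted p of 0.000881 and 0.000861 by edgeR's quasi-likelihood test. The endothelial share was 0.0111% to 0.0132% in PBS 1, 3 and 4, above every IL-33 library, and 0.00549% in PBS 2, within the IL-33 range. The part of endothelial, erythroid and B cell reads in the result was not tested. With the trend of each library with exon length removed, the log2 change of Malat1 was -1.70 and that of Neat1 -1.48, with adjusted p of 0.000911 and 0.00132 by edgeR's quasi-likelihood test.

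Because both RNAs are nuclear and lie side by side, their ratio within each library was compared, which does not depend on scaling. Neat1 reads per Malat1 read were 0.0557, 0.0478, 0.0419 and 0.0573 in PBS and 0.0411, 0.0452, 0.0394, 0.0367 and 0.0404 in IL-33 libraries. The ranges overlap by PBS 3 alone, which lies below IL-33 2. The mean log2 ratio was -4.31 ± 0.21 (SD, n = 4) in PBS and -4.63 ± 0.11 (SD, n = 5) in IL-33 libraries, a difference of -0.31 (two-sided exact permutation test over 126 splits, p = 0.0317, adjusted over 4 ratios 0.0423). This order of the 2 changes turned with the length trend removed, where Neat1 changed by -1.48 and Malat1 by -1.70. The Gas5 to Malat1 ratio rose from a mean log2 of -4.00 ± 0.38 (SD, n = 4) to -2.35 ± 0.23 (SD, n = 5), with no overlap (exact permutation p = 0.0159, the smallest these splits allow, adjusted 0.0317). Of this pair Malat1 fell and Gas5 gave no call. Leaving out any single library other than PBS 3 or IL-33 2 took the adjusted p of both ratios above 0.05, to between 0.0571 and 0.0952, with fewer splits to draw on.

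**Figure D2:**
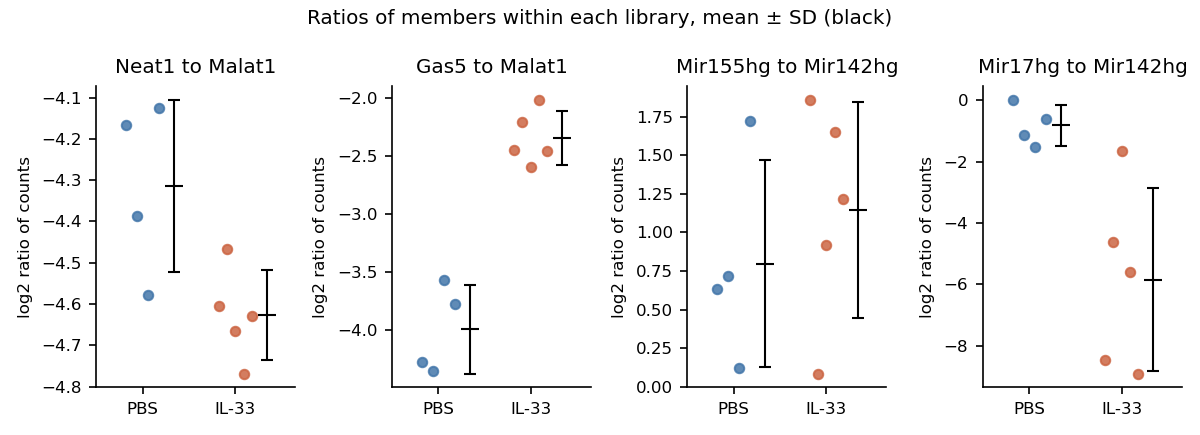
Each panel shows the log2 ratio of the counts of 2 genes within a library, 1 point per library, with mean ± SD in black. The Gas5 to Malat1 and Mir17hg to Mir142hg ratios separate the 4 PBS from the 5 IL-33 libraries, and the Mir155hg to Mir142hg ratios overlap.

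Over the 9 libraries the profiles of Malat1 and Neat1 differed by 0.21 log2 units (root-mean-square difference of centred log2 CPM), the smallest value among pairs of the 9 genes. Outside this set, the genes with the profiles most like Malat1 were Ikzf2, which encodes the transcription factor Helios (0.23), and Cdk11b, a cyclin-dependent kinase (0.26). Those most like Neat1 were Neurl3, a ubiquitin ligase (0.29), and Mga, a Max-binding transcription factor (0.30). Ikzf2 had means of 147 ± 57.6 and 38.0 ± 9.97 CPM (SD) in PBS and IL-33 libraries, and Neurl3 had 670 ± 112 and 145 ± 22.1. These are descriptions over 9 libraries that share the group difference. Frmd8, a cofactor of shedding proteases and the nearest coding gene on the Neat1 side of the pair, gave no call: its log2 change was 0.73 ± 0.33 (SE), with an edgeR adjusted p of 0.138.

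Proteins of the bodies these RNAs occupy moved in both directions. Of 18 genes of paraspeckle and speckle proteins tested, 5 fell and 2 rose, with a median log2 change of -0.17. Over all genes 11.6% were lower and 13.7% higher, with a median of -0.05, and each list count here is read against these shares. Values of list genes, here and below, are from the fit without removal of the length trend. That removal moved the log2 change of Neat1 from -2.33 to -1.48 and that of Dleu2 from -0.23 to 0.27. Its effect on the list genes is not given. Son, the core scaffold of speckles, went from 718 ± 147 to 352 ± 39.7 CPM (-1.03 ± 0.15 log2 units, edgeR adjusted p = 0.00115). Srrm2, the other main speckle scaffold, fell by 1.18 (log2, SE 0.21, edgeR adjusted p = 0.00318), and the splicing factor Srsf2 fell by 1.41 (SE 0.27, edgeR adjusted p = 0.00492). Of other long noncoding RNAs, 14 were tested, of which 3 fell and 3 rose (median 0.08). Lncpint, an RNA induced by p53, went from 26.3 ± 9.17 to 2.75 ± 1.79 CPM (-3.26 ± 0.52 log2 units, edgeR adjusted p = 0.00201). Kcnq1ot1, the nuclear imprinting RNA, went from 61.8 ± 16.3 to 20.4 ± 6.62 CPM (-1.60 ± 0.28, edgeR adjusted p = 0.00313). Gm14005, also known as Morrbid, which controls Bcl2l11 in short-lived myeloid cells, went from 3.07 ± 2.08 to 13.3 ± 2.89 CPM (2.11 ± 0.46, edgeR adjusted p = 0.00911).

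Among the snoRNA hosts no change was called. Gas5 (ENSMUSG00000053332, chromosome 1, 161034422-161038539, + strand), known as growth arrest-specific and as a decoy of the glucocorticoid receptor, was the most abundant of them. It had 396, 406, 314 and 300 CPM in PBS and 324, 253, 290, 340 and 262 CPM in IL-33 libraries. The groups overlap, and the means of 354 ± 54.8 (SD, n = 4) and 294 ± 37.7 (SD, n = 5) gave a log2 change of -0.27 ± 0.14 (SE), with an adjusted p of 0.176 in edgeR. Gas5 overlaps Zbtb37 on the other strand, but their annotated exons share 0 bases, and Zbtb37 was at 0.763 to 11.2 CPM in PBS and 0.950 to 5.81 in IL-33 libraries.

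Snhg8 (ENSMUSG00000104960, chromosome 3, 123507552-123508404, - strand) had 20.8, 27.1, 20.9 and 20.3 CPM in PBS and 14.8, 20.4, 21.7, 30.3 and 23.2 CPM in IL-33 libraries. Both the lowest and the highest value were in IL-33 libraries. The means were 22.3 ± 3.21 (SD, n = 4) and 22.1 ± 5.62 (SD, n = 5), and the log2 change was -0.01 ± 0.22 (SE, edgeR adjusted p = 0.975), with a sign that turned under several settings. Snhg12 (ENSMUSG00000086290, chromosome 4, 132308623-132311024, + strand) had 11.6, 12.6, 6.89 and 4.39 CPM in PBS and 4.53, 5.11, 2.51, 5.76 and 1.55 CPM in IL-33 libraries. PBS 4 fell within the IL-33 range and the other PBS libraries lay above it. The means were 8.88 ± 3.89 and 3.89 ± 1.79 CPM (SD), with a log2 change of -1.19 ± 0.48 (SE) and an edgeR adjusted p of 0.0971. DESeq2 and limma voom gave adjusted p of 0.0440 and 0.0392. These 2 were the only calls among 21 alternative fits, and the highest adjusted p was 0.267, by edgeR with a replicate block.

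For Snhg1 only reads on snoRNA genes within its span can be given. The 8 snoRNA rows there summed to 114, 223, 53 and 39 reads in PBS and 126, 65, 114, 156 and 46 reads in IL-33 libraries. These overlap fully, and their fragments could come from the host or from the snoRNAs. Of 12 other snoRNA and 5′ TOP hosts tested, 1 rose and 1 fell (median log2 change -0.19), where 13.7% of all genes tested were higher and 11.6% lower. Snhg15 fell from 196 ± 20.3 to 53.3 ± 10.5 CPM (-1.88 ± 0.16, edgeR adjusted p = 9.01e-05), and Zfas1 rose from 14.0 ± 5.31 to 28.9 ± 4.13 CPM (1.05 ± 0.27, edgeR adjusted p = 0.0191). The third named, 1810032O08Rik, had 7.24 ± 1.07 and 4.02 ± 1.78 CPM (edgeR adjusted p = 0.153).

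The machinery of both fates of a snoRNA host was mostly without a call. Of 8 genes of snoRNP proteins, which package snoRNAs, 1 rose and 0 fell (median log2 change 0.01). Nhp2, a core protein of the H/ACA class, rose from 82.0 ± 12.8 to 154 ± 41.0 CPM (0.91 ± 0.20, edgeR adjusted p = 0.00973), while Gar1 of the same class had 30.5 ± 9.33 and 45.1 ± 12.2 CPM and Nop56 of the C/D class had 140 ± 7.18 and 123 ± 15.0. Of 14 nonsense-mediated decay genes, 2 fell and 0 rose (median 0.03). Smg1, the kinase of Upf1, fell by 1.22 (log2, SE 0.22, edgeR adjusted p = 0.00342). Upf2, an Upf1 activator, fell by 1.05 (SE 0.22, edgeR adjusted p = 0.00762). Beside the counts of both lists, 11.6% of all genes tested were lower and 13.7% higher.

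**Figure D3:**
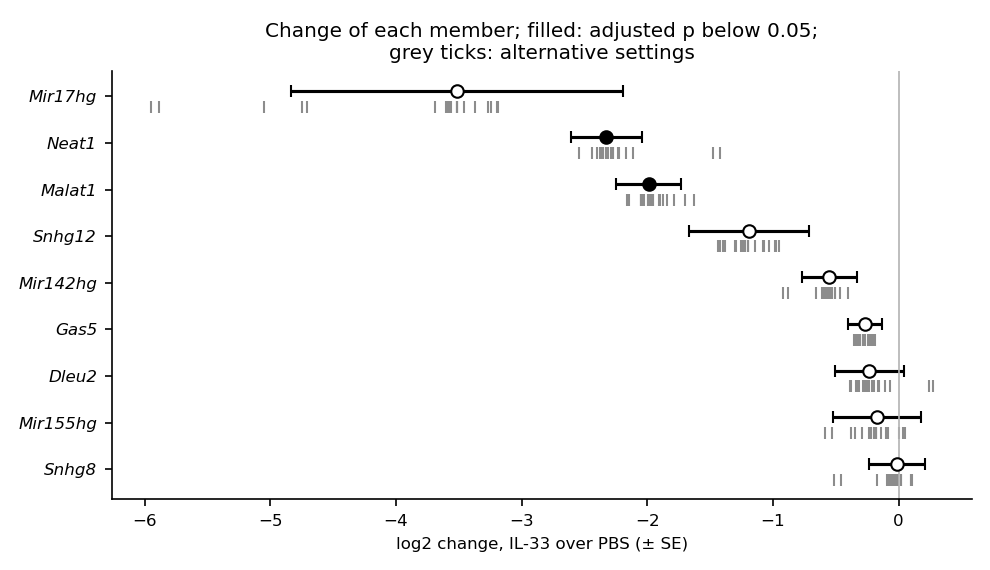
The x axis is the log2 change (IL-33 over PBS) of each gene, as a point ± SE, filled where edgeR's adjusted p was below 0.05; grey ticks below each point are the same change under 21 alternative settings (20 for Mir17hg). Malat1 and Neat1 are filled and every tick lies below -1, whereas ticks for Snhg8, Mir155hg and Dleu2 lie on both sides of 0.

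Of the microRNA hosts none was called; the groups of libraries did not overlap for Mir17hg and Mir142hg and overlapped for Mir155hg and Dleu2. Mir17hg (ENSMUSG00000089726) had 12.6, 8.32, 5.17 and 7.44 CPM in PBS libraries, from 249, 138, 102 and 78 reads. In IL-33 libraries it had 0, 7, 66, 3 and 0 reads, which is 0, 0.416, 3.07, 0.143 and 0 CPM. The limits that a count of 0 allows, 3 reads, are 0.166 CPM in IL-33 1 and 0.133 CPM in IL-33 5, and they cover counting error only. No IL-33 library reached the lowest PBS value, and IL-33 3 stood apart from the other four IL-33 libraries. The means were 8.39 ± 3.13 (SD, n = 4) and 0.726 ± 1.32 (SD, n = 5), and the fitted log2 change of -3.51 ± 1.32 (SE) had an edgeR adjusted p of 0.0802. Without IL-33 3 it was -5.89 with an edgeR adjusted p of 0.00771. DESeq2 (0.0191), limma voom (0.00463) and limma-trend (0.00865) gave adjusted p below 0.05 with all libraries. These 4 were the only calls among 20 alternative fits. In edgeR the adjusted p was 0.117 with a replicate block and 0.164, the highest, without PBS 1.

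Mir142hg (ENSMUSG00000084796) had 12.5, 18.4, 14.8 and 11.5 CPM in PBS and 9.72, 10.9, 9.67, 7.96 and 10.6 CPM in IL-33 libraries. The groups do not overlap, though the lowest PBS value, 11.5, lies close to the highest IL-33 value, 10.9. The means of 14.3 ± 3.10 (SD, n = 4) and 9.77 ± 1.15 (SD, n = 5) gave a log2 change of -0.55 ± 0.22 (SE), with an adjusted p of 0.0969 in edgeR. The adjusted p was 0.0272 by DESeq2 and 0.0228 by edgeR with the length trend removed. These 2 were the only calls among 21 alternative fits, and the highest adjusted p was 0.433, by edgeR with library size alone. Only 269 bases of exon are annotated for this host. Mir142b, a microRNA gene on the opposite strand inside it, had 8 to 35 reads in PBS and 5 to 23 in IL-33 libraries.

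Mir155hg (ENSMUSG00000097418), historically called Bic, had 19.3, 30.3, 16.1 and 37.9 CPM in PBS and 35.4, 11.5, 18.3, 25.1 and 24.7 CPM in IL-33 libraries. The libraries of each group spread across the same range. The means were 25.9 ± 10.03 (SD, n = 4) and 23.0 ± 8.86 (SD, n = 5), with a log2 change of -0.17 ± 0.35 (SE) and an adjusted p of 0.760 in edgeR. Dleu2 (ENSMUSG00000097589), deleted together with its microRNAs in human lymphocytic leukaemia, had 45.9, 42.0, 28.2 and 30.2 CPM in PBS and 44.0, 16.4, 32.6, 33.6 and 29.2 CPM in IL-33 libraries. IL-33 2 was the low library and the groups overlap (means 36.6 ± 8.70 and 31.2 ± 9.90, log2 change -0.23 ± 0.28 SE, edgeR adjusted p = 0.575). Dleu2 overlaps Trim13 and Kcnrg on the other strand with 0 bases of exon in common.

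Within libraries, Mir17hg reads per Mir142hg read were 1.01, 0.452, 0.349 and 0.651 in PBS and 0.00283, 0.0409, 0.319, 0.0209 and 0.00208 in IL-33 libraries, where 0.5 was added to each count. IL-33 3 came close to PBS 3 and no library crossed. The mean log2 ratio was -0.82 ± 0.67 (SD, n = 4) in PBS and -5.84 ± 2.98 (SD, n = 5) in IL-33 libraries, a difference of -5.03 (two-sided exact permutation p = 0.0159, adjusted 0.0317). Its size rests on the count added to the libraries at 0, and was -3.36 with 5 added. The adjusted p rose above 0.05 when any single library other than PBS 3 or IL-33 2 was left out. The Mir155hg to Mir142hg ratio had mean log2 values of 0.80 ± 0.67 (SD, n = 4) and 1.15 ± 0.70 (SD, n = 5), a difference of 0.35 (exact permutation p = 0.460). The 2 coding neighbours that were called stood on opposite sides: Supt4a, an elongation factor subunit near Mir142hg, rose by 0.67 (log2, SE 0.11, edgeR adjusted p = 0.0019), and Spryd7 near Dleu2 fell by 1.30 (SE 0.41, edgeR adjusted p = 0.0414).

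Compared per kilobase of annotated exon, the order of the 9 genes was led by Malat1 in both groups. In PBS it stood at 854 ± 340 CPM per kb (SD, n = 4), above Gas5 at 94.2 ± 14.6, Mir142hg at 53.2 ± 11.5, Snhg8 at 26.1 ± 3.77, Mir155hg at 18.1 ± 7.0 and Neat1 at 14.7 ± 6.25. Snhg12 (3.70 ± 1.62), Dleu2 (3.23 ± 0.768) and Mir17hg (2.37 ± 0.885) were last, and neighbours among these last 3 overlapped, as did Snhg8 with Mir155hg and Mir155hg with Neat1. In IL-33 libraries Malat1 had 215 ± 36.8 CPM per kb (SD, n = 5) and Gas5 78.1 ± 10.02, still without overlap. Neat1 stood at 2.92 ± 0.474, level with Dleu2 at 2.75 ± 0.874, and Mir17hg was last at 0.205 ± 0.374. With the longest transcript as the length, Dleu2 ranked above Neat1 in IL-33 libraries, without overlap. Neat1 has 4 annotated transcripts, and both choices of length divide it by the full 20771 bases. Reads of its forms were not separated, so its level per kb and its place in the order depend on this length.

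**Figure D4:**
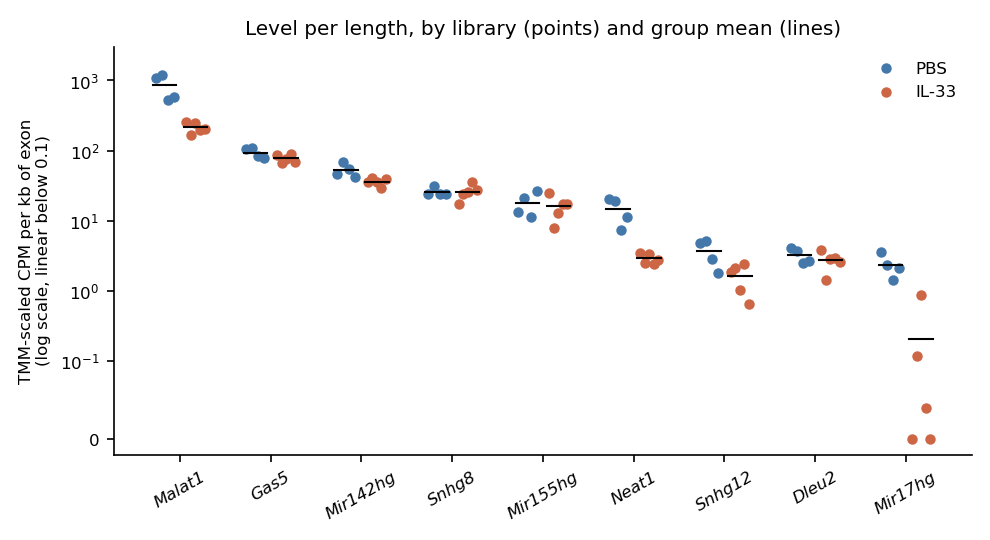
The y axis is TMM-scaled CPM per kb of annotated exon on a log scale that turns linear below 0.1; points are libraries (blue PBS, orange IL-33), lines are group means and genes are ordered by their PBS mean. Malat1 lies above all others in both groups (854 and 215), and Neat1, divided by its full 20771 bases, drops from 14.7 to 2.92, to the level of Dleu2.

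Of 22 genes tested from the list of other microRNA hosts, 4 rose and 4 fell (median log2 change 0.09). Over all genes tested, 13.7% were higher and 11.6% lower. Mirt1 is counted among those that fell, but it is a long noncoding RNA not established as a microRNA host. It went from 12.8 ± 5.93 to 0.924 ± 0.600 CPM (-3.78 ± 0.56, edgeR adjusted p = 0.0014). Mcm7, a replicative helicase subunit whose intron holds the miR-106b-25 cluster, a paralogue of miR-17-92, rose from 30.6 ± 15.7 to 151 ± 44.2 CPM (2.30 ± 0.36, edgeR adjusted p = 0.00184). Smc4, a condensin subunit that hosts miR-15b and miR-16-2, rose from 166 ± 21.2 to 270 ± 47.1 CPM (0.70 ± 0.15, edgeR adjusted p = 0.00796). Set beside them, the uncalled log2 changes were -3.51 for Mir17hg and -0.23 for Dleu2, and the latter was 0.27 with the length trend removed; differences between hosts were not tested.

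Genes that process or use microRNAs were lower where they were called. Of 16 tested, 6 fell and 0 rose, against 11.6% lower and 13.7% higher among all genes, with a median log2 change of -0.73 against -0.05. The list was drawn up with earlier results of these data known, so its count is a description. Ago3, an Argonaute protein, went from 24.1 ± 10.4 to 6.92 ± 2.56 CPM (-1.80 ± 0.37, edgeR adjusted p = 0.00648), and the RNA helicases Ddx17 and Ddx5, which assist Drosha, fell by 0.97 (SE 0.17) and 1.03 (SE 0.22), with edgeR adjusted p of 0.00327 and 0.00851. The core enzymes had no call: Drosha had 17.2 ± 12.4 and 15.0 ± 5.46 CPM and Dicer1 30.6 ± 22.3 and 17.4 ± 4.34, and Ago2 had 99.99 ± 8.38 and 113 ± 14.0. These last 3 were singled out after their values were seen.

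Reported targets were read on the same scale. They were listed from knowledge of other cells, and a shared direction with a host shows no regulation. Of 10 targets of the miR-17-92 cluster, 4 fell and 0 rose (median log2 change -0.81), where 11.6% of all genes tested were lower and 13.7% higher; the same shares stand beside the counts of the other target lists. The cell-cycle inhibitor Cdkn1a went from 797 ± 29.5 to 440 ± 63.3 CPM (-0.86 ± 0.11, edgeR adjusted p = 0.000737) and the NF-kB inhibitor Tnfaip3 from 2135 ± 539 to 971 ± 199 (-1.14 ± 0.20, edgeR adjusted p = 0.00333). Of 7 miR-142 targets, 1 rose and 1 fell (median -0.97): Rac1, a GTPase of the cytoskeleton, rose by 1.12 (SE 0.16, edgeR adjusted p = 0.00114), and Wasl, an actin nucleator activator, fell by 1.07 (SE 0.26, edgeR adjusted p = 0.0139). Tgfbr1, a TGF-beta receptor chain, had 17.8 ± 7.61 and 6.30 ± 3.92 CPM (edgeR adjusted p = 0.064).

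Of 8 miR-155 targets tested, 3 fell and 0 rose (median -0.90). Fosl2, an AP-1 subunit, went from 905 ± 210 to 389 ± 78.4 CPM (-1.22 ± 0.19, edgeR adjusted p = 0.00181), Cebpb, a bZIP transcription factor, from 14.9 ± 7.34 to 2.65 ± 1.08 (-2.49 ± 0.43, edgeR adjusted p = 0.00316), and Inpp5d, the phosphatase SHIP1, from 153 ± 9.46 to 107 ± 9.36 (-0.51 ± 0.10, edgeR adjusted p = 0.00555). Of 10 targets of miR-15 and miR-16, 2 rose and 4 fell (median 0.46). The survival factor Bcl2 went from 182 ± 45.4 to 48.9 ± 6.78 CPM (-1.89 ± 0.18, edgeR adjusted p = 0.000165) and the cyclin Ccnd2 from 1039 ± 166 to 369 ± 74.1 (-1.49 ± 0.17, edgeR adjusted p = 0.000324). Myb, a transcription factor of proliferating progenitors, had 0 reads in all PBS libraries and 2.36 ± 0.707 CPM in IL-33 libraries, at least 12.3-fold higher when PBS libraries are set at 3 reads each; the list's median was the same with Myb at this bound.

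The seed matches behind these lists are shown for some targets named above, all of them lower in IL-33 libraries. Each is printed as 29 bases of the 3′UTR of 1 annotated transcript on GRCm38, with the complement of the seed in capitals. Not printed are, among others, matches in Rac1 (miR-142a-3p) and Myb (miR-16-5p), which rose, and in Bcl2 (miR-16-5p) and Tgfbr1 (miR-142a-3p).
Inpp5d, miR-155-5p, chr1:87719827-87719855, + strand: tgtttttaaaaAGCATTAaagaaaaccat
Cebpb, miR-155-5p, chr2:167690355-167690383, + strand: tttccgtttcgAGCATTAaagtgaagaca
Fosl2, miR-155-5p, chr5:32156929-32156957, + strand: tagaaacagatAGCATTAaagtacttcct
Cdkn1a, miR-17-5p, chr17:29099818-29099846, + strand: agacctgaataGCACTTTggaaaaatgag
Wasl, miR-142a-3p, chr6:24616226-24616254, - strand: tgaaatactaaACACTACttcctgtctat
Ccnd2, miR-16-5p, chr6:127128531-127128559, - strand: gtttcacggtgTGCTGCTattttagaaac
A match to miR-155-5p (AGCATTA, sense strand of the 3′UTR) was present in 7 of the 9 listed targets and in 9.21% of 11154 tested genes with an annotated 3′UTR. For miR-17-5p (GCACTTT) it was 7 of 10 against 14.5%, for miR-142a-3p (ACACTAC) 5 of 7 against 6.87% and for miR-16-5p (TGCTGCT) 10 of 10 against 24.7%. The targets were listed because earlier work reported them, so their matches are a description and no result of these libraries.

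**Figure D5:**
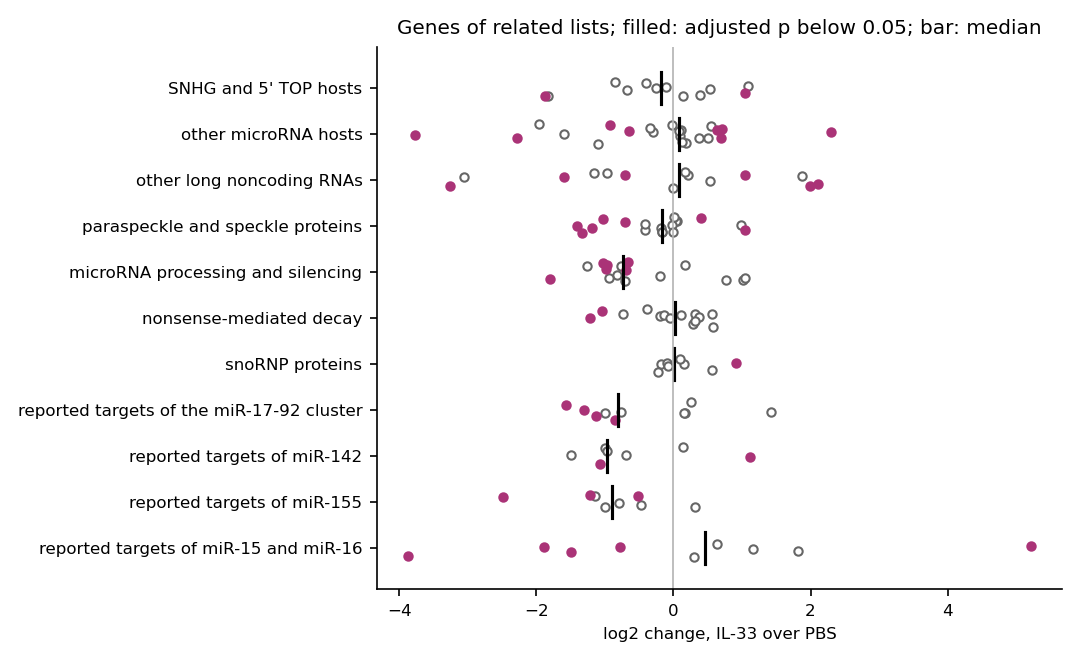
Each point is a tested gene of a list related to the noncoding genes, placed by its log2 change (IL-33 over PBS) on the x axis, filled where edgeR's adjusted p was below 0.05; bars are list medians, vertical position within a list is arbitrary, and Myb, with 0 reads in PBS, is not drawn. The microRNA processing list has 6 filled points, all below 0, and the list of other microRNA hosts has 4 on each side. Mirt1, not established as a microRNA host, is among the 4 below 0.

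Promoters were searched for the E-box CACGTG, bound by Myc and Max, and for the AP-1 motif TGANTCA, both of which read the same on either strand, in 250 bases before to 50 after each RefSeq start. CACGTG occurred in the Dleu2 promoter, 178 bases before the start, and in none of the other promoters searched (Malat1, Gas5, Snhg1, Snhg8, Snhg12 and Mir155hg). It occurred in 7.15% of 32851 promoters. TGANTCA occurred in none of these and in 7.81% of all promoters. The RefSeq start of Mir17hg lies 1511 bases from the nearest annotated start in GENCODE, so its promoter was not used, and Neat1 and Mir142hg were not searched.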

How the data were processed

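Raw counts per gene, as whole numbers, and a normalized signal were deposited by the authors; dividing a library's counts by a single factor gives its signal, which was checked in the files. Per the submitters' processing notes, the tools were STAR 2.7.7a, Salmon 1.6.0, DESeq2, Picard, FastQC 0.11.9 and Trimmomatic 0.39, on build GRCm38.p6, with no role stated for any. Per the labels' protocols, a low-input kit was used, with no statement on strand, so reads of overlapping genes could be shared. Counts were tested on the whole table with edgeR 4.0.16 in R 4.3.3 (TMM, filterByExpr at 10 counts, robust two-sided quasi-likelihood test, Benjamini-Hochberg over 14405 genes, threshold 0.05; biological coefficient of variation 0.560). Limma 3.58.1, DESeq2 1.42.0 and other scalings, filters, covariates, a replicate block and leaving out each library were alternatives. On simulated data the edgeR step found, among 13869 genes, 15.6% of the 96 that were changed 2-fold and 51.1% of the 94 changed 4-fold, and it made 2 false calls. A far smaller share of genes was changed there than the 25.2% called in the data. The adjustment is stricter in that setting, so these rates do not give the power of the reported fit. Ratios were tested with SciPy 1.17.1. Replicates were checked for duplicates, and all 16 pairs differed beyond sampling noise. Gene models, lengths and 3′UTRs were from GENCODE M21 (GRCm38), and sequences from RefSeq tables on GRCm38.p6.

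The genes and lists were chosen with earlier results of these data known. Named besides them were overlapping and nearest coding genes, the 3 genes with the smallest adjusted p of each list, and the 2 genes with profiles most like each called gene; a few genes this rule names are not reported here. The limits given for a count of 0 cover counting error only, as reads carry no molecular identifiers.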

Additional observations from a re-analysis of the deposited data

Results flagged for a closer look

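In 26 groups of 4 or 5 libraries (9 genes and 4 ratios in each of the 2 groups), a library at the end of its group was looked for that stood apart from the rest by more than Dixon's 95% critical value; chance gives about 1 in 20 groups. It was found for 2. Snhg8 in PBS 2 was 27.1 CPM, against 20.3 to 20.9 CPM in the other PBS libraries. Mir17hg in IL-33 3 was 3.07 CPM, against 0 to 0.416 CPM in the other IL-33 libraries. IL-33 3 also had the highest erythroid share, 0.365%, and a B cell marker share of 0.0417%, the highest of the IL-33 libraries but below the 0.0522% to 0.0612% of PBS 1 to 3, with 17 reads of Ms4a1 against 0 in all others. The sort gated out B220+ cells. The part of these cells in the Mir17hg value was not tested.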

How the results depend on the processing

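Malat1 and Neat1 were lower and called in all 21 alternative fits (log2 change -2.16 to -1.63 and -2.54 to -1.42). Against 1967 genes higher and 1666 lower, library size alone gave 1332 and 644, with the median of all genes at 0.08 in place of -0.05; DESeq2 gave 2588 lower and a threshold of 0.01 gave 1019 and 767. DESeq2 called 5 of the 9 genes lower and limma voom 4. The replicate numbers did not pair the libraries (same-number correlations -0.03, -0.06, -0.03 and 0.07); with the replicate block 791 genes were higher and 666 lower, and with the length trend removed as well 548 and 360. In the block fit Malat1 changed by -1.90 and Neat1 by -2.22 (edgeR adjusted p 0.0253 and 0.0186). The sign of uncalled changes turned for Snhg8 (0.10 with library size alone, 0.018 with the acinar covariate, -0.17 to 0.10 when leaving out 1 library, above 0 without PBS 2, IL-33 1 or IL-33 2), Mir155hg (0.035 with library size alone, -0.38 to 0.051 when leaving out 1 library, above 0 without PBS 4) and Dleu2 (0.27 and 0.24 with the length trend removed, without and with the block). Leaving out 1 library at a time, ratio differences were -0.40 to -0.25 for Neat1 to Malat1, 1.53 to 1.79 for Gas5 to Malat1 and -6.08 to -4.26 for Mir17hg to Mir142hg; each lost its call in 7 of 9 cases, where the smaller number of splits raises the smallest p. With library size alone, 1 pair of neighbours in the PBS order per length did not overlap, against 4. Mir17hg was not tested under the filter of 5 CPM. Causes were not tested.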
